A study of Rattus norvegicus with 6 samples.

Results

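The miR-34 and miR-449 miRNAs were followed here through the small RNA sequencing of peri-infarct cortex from rats with ischemic stroke. The members were taken by name alone, as every row of the count table for miR-34a, miR-34b, miR-34c or miR-449a, and no measured value was used to choose them. This gave 6 mature miRNAs of the 493 in the table: rno-miR-34a-5p, rno-miR-34b-5p, rno-miR-34b-3p, rno-miR-34c-5p, rno-miR-34c-3p and rno-miR-449a-5p, written without the prefix for rat from here on. Small RNA was sequenced from 3 rats with occlusion alone (MCAO) and 3 with occlusion and stimulation (MCAO + rTMS), 1 library a rat. All were male Sprague-Dawley rats whose right middle cerebral artery was closed for 90 min and then reopened, and their age is not given in the sources used here. The MCAO rats received no stimulation, and their cortex was taken at day 7. The labels count this day from surgery for MCAO replicate 3 and from reperfusion for the other MCAO rats. The MCAO + rTMS rats also received repetitive transcranial magnetic stimulation at 10 Hz. The labels give 10 min a day on 7 days in a row, and no day for the tissue of these rats. The methods describe short trains of stimulation with rests between them and state no minutes a day. According to the methods, stimulation started the day after reperfusion, from a coil above the motor cortex of the injured side. The paper's supplement dates the compared peri-infarct tissue to 7 days after modeling, without naming a group. No sham-operated or sham-stimulated rats are among the libraries analysed here, so handling and stimulation cannot be told apart. If the tissue day differed between the groups, it cannot be told apart from stimulation either.

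A mature miRNA is a short RNA that a hairpin precursor releases from its left (5p) or right (3p) side, and it represses mRNAs that pair with its seed, bases 2 to 8 from the 5′ end. The miR-34 genes are classical transcriptional targets of p53, the transcription factor activated by DNA damage and cell stress, and their products repress regulators of the cell cycle and of survival, such as Cdk6, Met and Bcl2. miR-34a is made in many tissues, brain included. miR-34b, miR-34c and the miR-449 miRNAs are best known from cells that carry many motile cilia, where they act together in the formation of cilia. In brain, such cells form the ependyma, which lines the ventricles, where the choroid plexus also lies.

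The mature sequences are shown because the seeds place the 6 members in 2 groups, with the seed in capitals. They were taken from RefSeq records of the GRCr8 rat assembly, which held a mature sequence for 451 of the 493 rows.

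miR-34a-5p: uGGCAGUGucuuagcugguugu
miR-34c-5p: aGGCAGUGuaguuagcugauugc
miR-34b-5p: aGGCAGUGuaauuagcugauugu
miR-449a-5p: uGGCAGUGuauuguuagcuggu
miR-34b-3p: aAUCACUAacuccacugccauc
miR-34c-3p: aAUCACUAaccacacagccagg

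The 4 members on the 5p side all carried the seed GGCAGUG, and the 2 members on the 3p side both carried AUCACUA. No other row of the table with a sequence had either seed. Among all 693 rat miRNAs of the RefSeq table, GGCAGUG was found in 5, the fifth being miR-449c-5p, which was not analysed here, and AUCACUA in 2. miR-34c-5p and miR-34b-5p were 23 bases long and differed at 2 positions, G11A and C23U, counted from the 5′ end with the base of miR-34c-5p first. Their first 10 bases were the same, and G11A lies within a full-length read. How the authors' counting rule divided reads between them is not given in the sources used here. miR-34a-5p and miR-449a-5p shared their first 9 bases and matched at 15 of 22 positions. miR-34b-3p and miR-34c-3p shared their first 10 bases and matched at 17 of 22 positions, with the differences U11C, C12A, U16A, U21G and C22G, written with the base of miR-34b-3p first.

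The hairpins of miR-34b and miR-34c, with both mature arms in capitals, are shown because they were the members counted on both arms.

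Mir34b: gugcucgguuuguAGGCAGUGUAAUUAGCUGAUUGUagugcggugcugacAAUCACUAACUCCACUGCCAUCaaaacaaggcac
Mir34c: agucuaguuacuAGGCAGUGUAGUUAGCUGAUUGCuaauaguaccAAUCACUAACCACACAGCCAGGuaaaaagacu

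Mir34b and Mir34c are direct neighbours on the minus strand of chromosome 8 in GRCr8 and both overlap Hoatz, a gene of cilia and flagella. Mir34a is on chromosome 5, between H6pd and Gpr157. Mir449a is on chromosome 2, next to Mir449c and near Mcidas, which drives the program of cells with many cilia. Positions are not given, because the submitters' processing notes name another build, rn6.

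The values are read counts per mature miRNA and were deposited without normalization. The total count per library was between 10492610 and 15411620. No count from 1 to 9 occurred in the table, and 286 of its 2958 counts were listed as 0, so a listed 0 can stand for any count up to 9. Levels are given as CPM, counts per 1000000 of a library total scaled with the TMM factors of edgeR, which were 1.16 to 1.39 in MCAO rats and 0.695 to 0.864 in MCAO + rTMS rats. The members were 22 or 23 bases long, so CPM was close to a level per length, although ligation of adapters favours some small RNAs over others. The brain miRNAs miR-128-3p and miR-9a-5p headed the list of neuron miRNAs, whose 6 members summed to 329340 to 429036 CPM in MCAO rats and 427839 to 618125 CPM in MCAO + rTMS rats. MCAO replicate 3 stood apart in epithelial miRNAs: miR-182, miR-183, miR-96, miR-429 and the miR-200 miRNAs summed to 97.6 CPM there and to between 17.2 and 25.7 CPM in the other 5 libraries. MCAO + rTMS replicate 3 stood apart in the choroid plexus miRNAs miR-204 and miR-211, at 1155 CPM against 425 to 619 CPM in the other 5. Results are therefore also given without these libraries. In tissue RNA, fewer cells of a type and less RNA per cell cannot be told apart.

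miR-34a-5p was the most abundant member in all 6 libraries. Its level was 123, 142 and 88.8 CPM in MCAO replicates 1, 2 and 3, and 107, 69.6 and 58.7 CPM in MCAO + rTMS replicates 1, 2 and 3. The highest treated library was above the lowest untreated library, so the groups overlapped. By mean CPM it ranked 160 of 493 miRNAs. miR-34c-5p followed at rank 187, with 76.3, 61.3 and 67.8 CPM in MCAO rats and 75.5, 66.9 and 58.3 CPM in MCAO + rTMS rats. Its groups covered almost the same range.

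The products of miR-34b were rarer by several fold. miR-34b-5p was at 15.2, 8.42 and 9.90 CPM in MCAO rats and at 14.6, 13.1 and 11.7 CPM in MCAO + rTMS rats. miR-34b-3p was at 7.51, 8.42 and 9.14 CPM in MCAO rats and at 8.50, 10.1 and 7.68 CPM in MCAO + rTMS rats. Both miRNAs overlapped between the groups.

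The lowest levels belonged to miR-34c-3p and miR-449a-5p. miR-34c-3p had 44, 34 and 51 counts in MCAO rats, or 2.80, 2.81 and 3.19 CPM, and only 13, 15 and 11 counts in MCAO + rTMS rats, or 0.978, 1.26 and 1.07 CPM. All treated libraries were below all untreated libraries, although their totals were larger. The exact 95% Poisson interval was 23.5 to 47.5 for the lowest MCAO count of 34, and 8.40 to 24.7 for the highest MCAO + rTMS count of 15, so the intervals of these 2 counts overlapped. miR-449a-5p had 21, 19 and 27 counts in MCAO rats, or 1.34, 1.57 and 1.69 CPM, and was listed as 0 in all 3 MCAO + rTMS libraries. The exact 95% Poisson intervals of its counts were 13.0 to 32.1, 11.4 to 29.7 and 17.8 to 39.3. These intervals cover counting error only, since reads without molecular identifiers are not independent molecules.

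**Figure D1:**
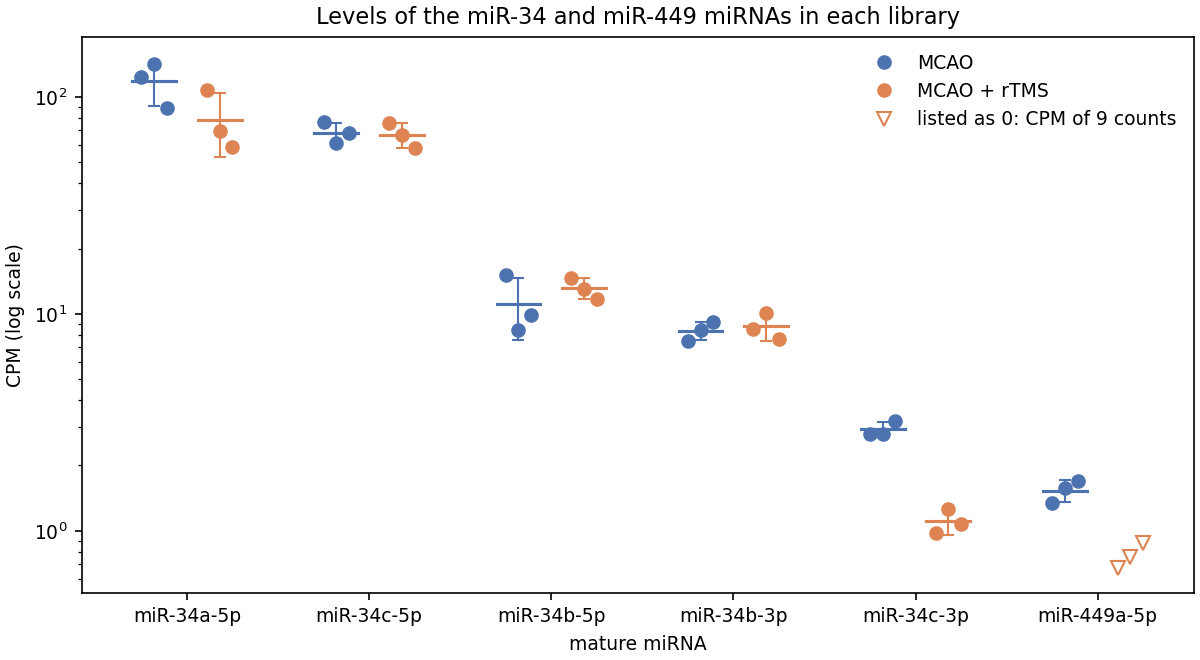
CPM on a log axis of each member (horizontal axis) in each library. Filled points are libraries, horizontal lines are group means, bars are SD (n = 3), and open triangles show the CPM of 9 counts for libraries listed as 0. The groups separate for miR-34c-3p and miR-449a-5p and overlap for the other 4 members.

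In MCAO rats the order of the means was miR-34a-5p, miR-34c-5p, miR-34b-5p, miR-34b-3p, miR-34c-3p and miR-449a-5p. Each neighbour pair was separated by more than the spread of its libraries, except miR-34b-5p and miR-34b-3p, which overlapped and had equal counts in replicate 2. In MCAO + rTMS rats the order was the same, and there miR-34a-5p and miR-34c-5p overlapped, with means of 78.5 ± 25.4 and 66.9 ± 8.60 CPM (SD, n = 3 each). miR-34a-5p was 1.72 times as abundant as miR-34c-5p in MCAO rats by group means, and 1.17 times in MCAO + rTMS rats. miR-34a-5p held 55.6% ± 7.07 of the counts of the 6 members in MCAO rats and 45.9% ± 5.12 in MCAO + rTMS rats, and miR-34c-5p held 32.9% ± 5.15 and 40.2% ± 3.19 (SD, n = 3 each). The seed GGCAGUG was carried by 94.5% ± 1.21 of the family's counts in MCAO rats and by 94.0% ± 1.28 in MCAO + rTMS rats (SD, n = 3 each).

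The family was a small part of each library. Its 6 members summed to 3556, 2716 and 2883 counts in MCAO rats and to 2748, 1909 and 1414 counts in MCAO + rTMS rats. The share of all counts was 0.0261% ± 0.000991 in MCAO rats and 0.0138% ± 0.00414 in MCAO + rTMS rats (SD, n = 3 each), and every treated library was below every untreated library. The 95% Wilson intervals of single libraries were narrow, the lowest MCAO library at 0.0243% to 0.0261% and the highest MCAO + rTMS library at 0.0172% to 0.0185%. Such intervals cover counting error within a library, not the spread between rats. A share moves with the most abundant miRNAs, and with library totals only the median log2 fold change of all tested miRNAs was itself -0.80. With TMM factors, the 4 members with the seed GGCAGUG summed to 199 ± 26.7 CPM in MCAO rats and 158 ± 35.1 CPM in MCAO + rTMS rats, with ranges of 168 to 216 and 129 to 197 CPM that overlapped.

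The question of the comparison was which miRNAs differed after rTMS in rats with MCAO. It was tested by edgeR's quasi-likelihood test, its p-values adjusted by the Benjamini-Hochberg method over all 452 miRNAs kept by the filter on low counts, which kept all 6 members. miR-449a-5p and miR-34c-3p fell with rTMS and the other 4 members did not pass the test. Thus 2 of the 6 members passed at an adjusted p under 0.05, where 55.3% of all tested miRNAs did. Both were lower, where 28.1% of all tested miRNAs were. None of the 6 was higher, where 27.2% of all tested miRNAs were, and none was higher at an unadjusted p under 0.05 with edgeR, DESeq2 or limma-voom. The groups did not overlap in these 2 members, where they did not in 66.8% of all tested miRNAs, and 36.1% had all MCAO + rTMS libraries below all MCAO libraries. The median log2 fold change of the 6 members was -0.31, also with miR-449a-5p at its bound given below, and that of all tested miRNAs was -0.21. The share of members that fell was thus near the background of these libraries. It includes miR-449a-5p, which the filter kept only through the MCAO libraries, where it was high, so its call is not independent support.

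The fold change of miR-34c-3p, the minor arm of its hairpin, was -1.40 on the log2 scale (adjusted p = 0.011 by edgeR's quasi-likelihood test, with a standard error of 0.34), from 2.93 ± 0.226 CPM to 1.10 ± 0.147 CPM (SD, n = 3 each), or 2.65-fold lower. The adjusted p in edgeR's test was 0.042 without MCAO replicate 3 and 0.029 without MCAO + rTMS replicate 3. Without MCAO + rTMS replicate 2 it was 0.051, so this library decided the side of the threshold. Of the 452 tested miRNAs, 69 had a lower fold change. A band of counts around that of miR-34c-3p was set after its values were seen: of 9 tested miRNAs with 30 to 60 counts in every MCAO library, 5 were lower in all MCAO + rTMS libraries than in all MCAO libraries, and 2 passed the edgeR test as lower, miR-34c-3p itself included.

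miR-449a-5p, the member tied most closely to ciliated cells, was at 1.53 ± 0.180 CPM in MCAO rats (SD, n = 3). A count of 9 would have been 0.677 to 0.875 CPM in the MCAO + rTMS libraries. With each of these libraries at 9 counts, the level was at least 1.99-fold lower in MCAO + rTMS rats with TMM factors, and at least 3.12-fold lower with library totals only. The adjusted p of edgeR's quasi-likelihood test was 0.0026 with the zeros as listed, 0.011 without the filter on low counts and 0.011 with every 0 of the table set to 9. With zeros set to 9, all MCAO + rTMS libraries held the same set count, below every MCAO count. That fit thus measured no spread between treated rats, and its direction was fixed in advance. The filter kept miR-449a-5p only through the MCAO libraries, where it was high, so its filtered test was not independent of the difference. The adjusted p of edgeR's test was 0.012 without MCAO replicate 3 and 0.0058 without MCAO + rTMS replicate 3. The pattern was shared by other rare miRNAs. In all, 15 miRNAs were above 0 in every MCAO library and listed as 0 in every MCAO + rTMS library, none of them above 51 counts, and no miRNA had the opposite pattern. Of 15 tested miRNAs with 15 to 30 counts in every MCAO library, a band also set after the values were seen, 5 were listed as 0 in all MCAO + rTMS libraries and 6 were above 0 in all.

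miR-34a-5p, the p53 target with the widest expression, was at 118 ± 26.8 CPM in MCAO rats and 78.5 ± 25.4 CPM in MCAO + rTMS rats (SD, n = 3 each). Its log2 fold change of -0.59 (adjusted p = 0.11 by the edgeR test, with a standard error of 0.28) did not pass the threshold. Without MCAO replicate 3 the adjusted p was 0.093 in edgeR's test, and without MCAO + rTMS replicate 3 it was 0.28. The call depended on the scaling and on 1 other library. The adjusted p of edgeR's test was 0.025 with upper-quartile factors and 0.014 with library totals only, at log2 fold changes of -0.88 and -1.17, and 0.036 without MCAO + rTMS replicate 1, at -0.88. These scalings moved the median log2 fold change of all miRNAs to -0.50 and -0.80. With upper-quartile factors 56.9% of all tested miRNAs passed, 38.1% lower and 18.8% higher, and with library totals only 58.2% passed, 46% lower and 12.2% higher. Relative to the median of its own scaling, miR-34a-5p was at -0.38 with TMM factors, -0.38 with upper-quartile factors and -0.37 with library totals only.

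For the 3 other members, the estimates were near 0 with TMM factors and their interval of 2 standard errors held 0. The log2 fold change of miR-34c-5p was -0.03, with an interval from -0.40 to 0.34. That of miR-34b-3p was 0.07, from -0.36 to 0.50, and that of miR-34b-5p was 0.23, from -0.30 to 0.76. Their direction changed with the scaling: with library totals only the values were -0.65, -0.55 and -0.38 in the same order, and the adjusted p in edgeR's test stayed above the threshold, with 0.052 for miR-34c-5p the lowest. Relative to the median of all miRNAs they were higher by 0.17, 0.28 and 0.44 with TMM factors and by 0.15, 0.25 and 0.42 with library totals only.

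**Figure D2:**
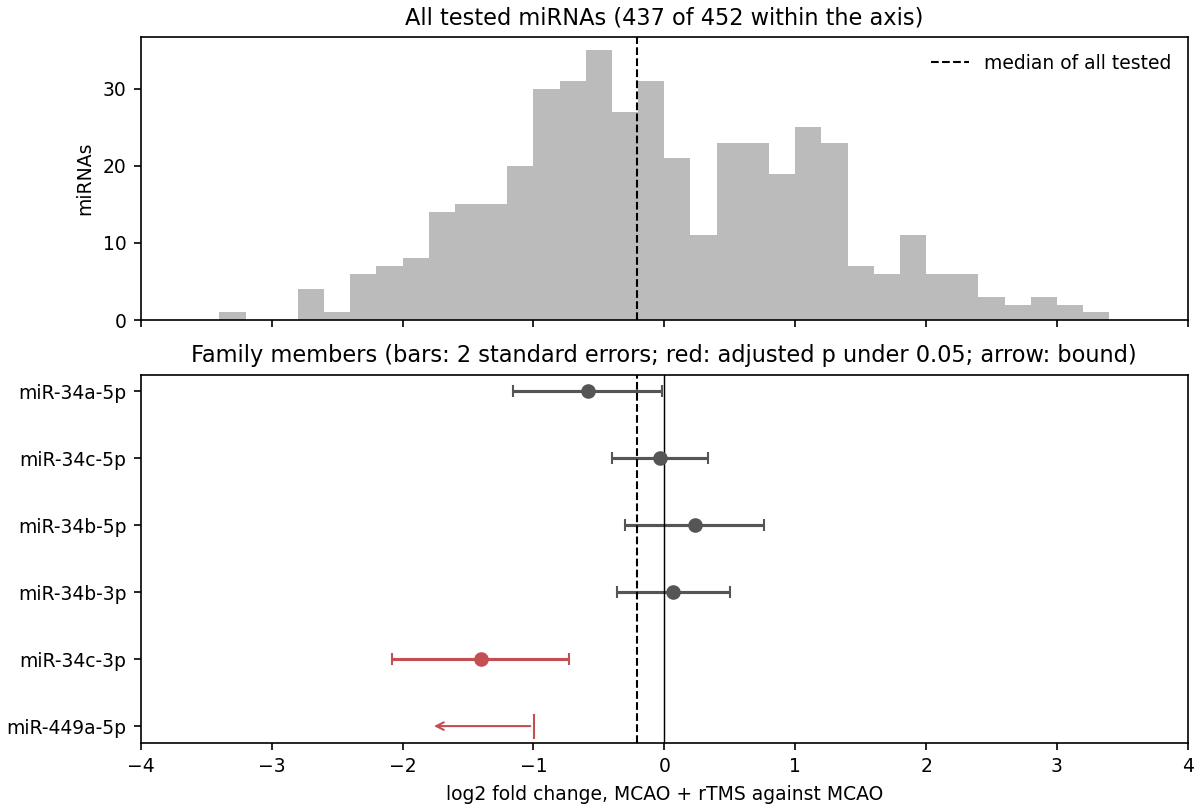
Upper panel, number of tested miRNAs by log2 fold change of MCAO + rTMS against MCAO, with the median of -0.21 as a dashed line. Lower panel, the same quantity for each member with bars of 2 standard errors (red, adjusted p under 0.05), and an arrow from the bound for miR-449a-5p. miR-34c-3p lies at -1.40 and the bars of miR-34c-5p, miR-34b-5p and miR-34b-3p include 0.

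**Figure D3:**
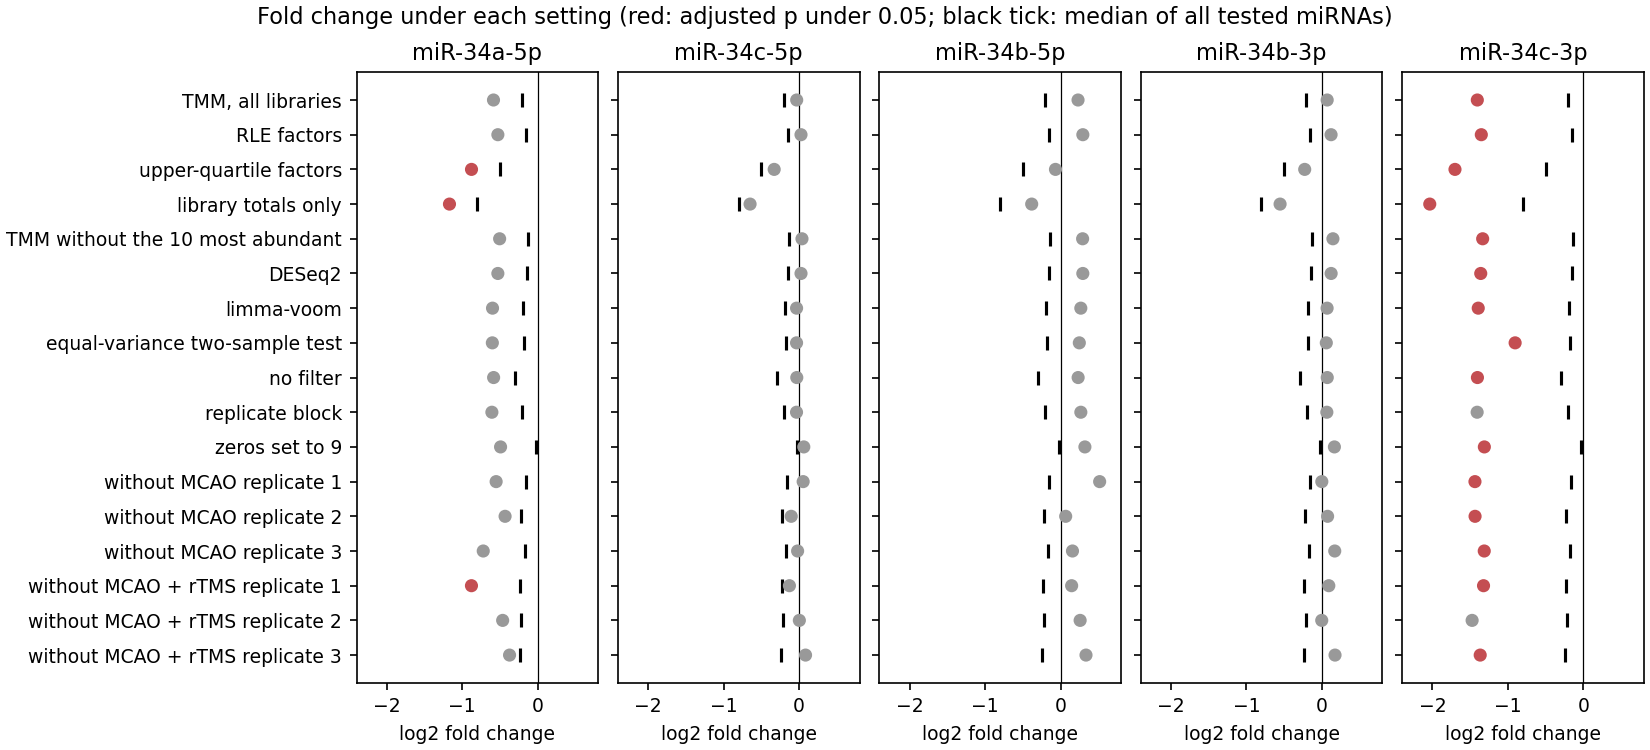
Log2 fold change of MCAO + rTMS against MCAO (horizontal axis) for 5 members under each scaling, test or left-out library (rows). Points are red where the adjusted p is under 0.05, and black ticks mark the median of all tested miRNAs under the same setting. With upper-quartile factors and library totals only, the points and the ticks move to the left together.

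Ratios between members within a library do not depend on the scaling, and 5 of them were compared. The ratio between the arms of miR-34c did not overlap between the groups, which was also the case in 55.2% of the 116 hairpins with both arms tested and above 0 in all libraries. The ratio of miR-34c-5p to miR-34c-3p was 27.2, 21.9 and 21.2 in MCAO rats and 77.2, 52.9 and 54.5 in MCAO + rTMS rats. Every treated library was above every untreated library. On the log2 scale, with 0.5 added to each count, the mean ratio was 4.53 ± 0.196 in MCAO rats and 5.87 ± 0.303 in MCAO + rTMS rats (SD, n = 3 each), a difference of 1.34. The exact two-sided permutation test gave p = 0.1, which is the smallest p that 3 against 3 libraries allow, and 0.25 after adjustment over the 5 ratios.

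miR-34b, which is processed from the neighbouring hairpin, did not show such a separation. The ratio of miR-34b-5p to miR-34b-3p was 2.02, 1 and 1.08 in MCAO rats and 1.72, 1.29 and 1.52 in MCAO + rTMS rats, and the groups overlapped. The mean log2 ratio differed by 0.21 (exact permutation test, p = 0.6). Between the 3p arms, the log2 ratio of miR-34c-3p to miR-34b-3p was -1.50 ± 0.0795 in MCAO rats and -2.94 ± 0.142 in MCAO + rTMS rats (SD, n = 3 each), without overlap (exact permutation test, p = 0.1, adjusted p = 0.25). Between the 5p arms, miR-34c-5p was 5.03, 7.28 and 6.85 times miR-34b-5p in MCAO rats and 5.18, 5.12 and 5 times in MCAO + rTMS rats. The treated libraries lay close together, at the low end of the untreated range (exact permutation test, p = 0.3).

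The ratio of miR-34a-5p to miR-34c-5p was 1.62, 2.31 and 1.31 in MCAO rats and 1.42, 1.04 and 1.01 in MCAO + rTMS rats, and the groups overlapped. The difference on the log2 scale was -0.57 (exact permutation test, p = 0.2).

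Over the 116 hairpins, the median size of the difference in 5p to 3p ratio between the groups was 0.91 on the log2 scale. By the size of the difference, miR-34c ranked 46 and miR-34b ranked 100 of the 116, so miR-34c was a little above the median and miR-34b far below it.

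**Figure D4:**
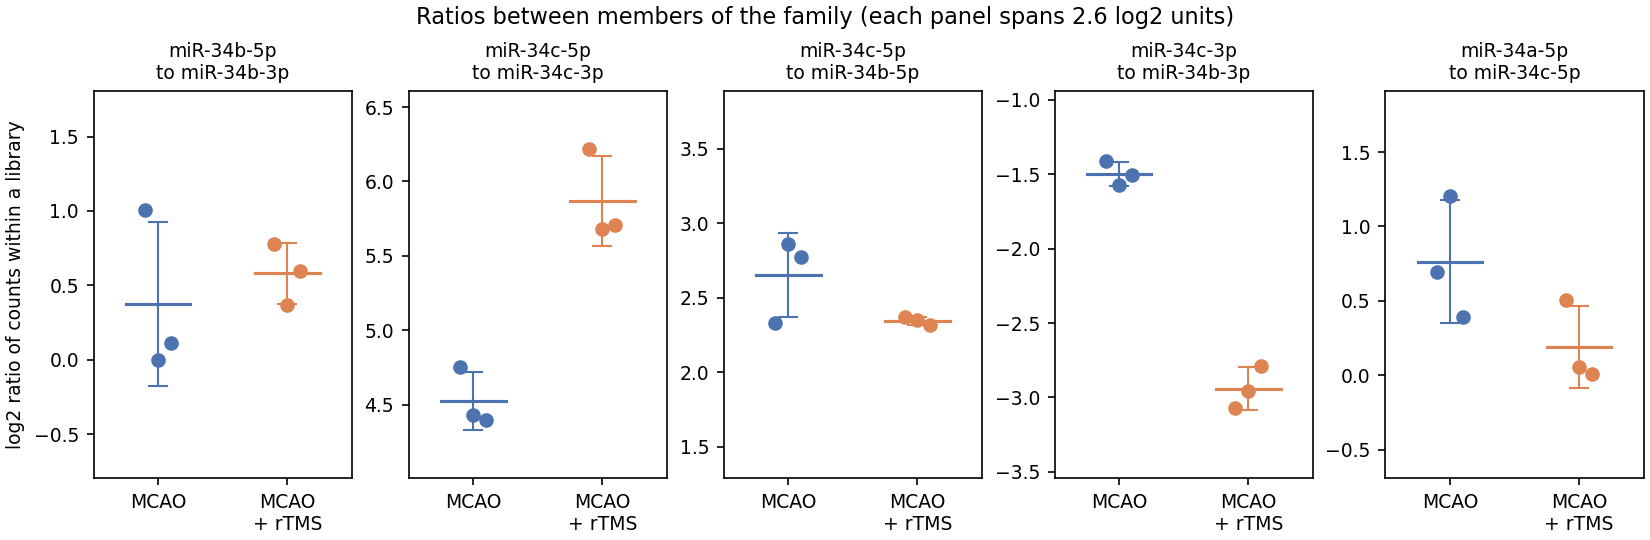
Log2 ratio of counts between members within each library for the 5 ratios, each panel covering 2.6 log2 units. Points are libraries, lines are group means and bars are SD (n = 3). The groups separate in the 2 panels that hold miR-34c-3p, with means of 4.53 and 5.87 and of -1.50 and -2.94, and overlap in the other 3.

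The members varied together to different degrees across the libraries. Pearson's r of log2(CPM + 1) over the 6 libraries, given as a description, was 0.71 between miR-34c-5p and miR-34b-5p, 0.43 between miR-34a-5p and miR-34c-5p, and 0.09 between the arms of miR-34c. The values of a library share its scaling, and the libraries fall into the 2 groups. The miRNAs outside the family with the pattern most like miR-34a-5p were miR-181c-3p (r = 0.97), miR-26b-5p (r = 0.93) and miR-30b-5p (r = 0.93). Like miR-34a-5p, each was highest in MCAO replicates 1 and 2 and lowest in MCAO + rTMS replicate 3. Those most like miR-34c-5p were miR-380-5p (r = 0.93), miR-6324 (r = 0.87) and miR-450a-5p (r = 0.86).

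Other miRNAs linked to p53 were counted from lists chosen with earlier results of these data known. Of 13 that are induced or processed with p53, 10 were tested, and 6 of these fell and 1 rose in edgeR's test, beside 28.1% and 27.2% of all tested miRNAs. The median log2 fold change of the 10 was -1.04. Several share a precursor cluster (miR-143 with miR-145, miR-192 with miR-194, miR-15a with miR-16) and are not independent. The most abundant, miR-143-3p, a miRNA of smooth muscle, rose from 2452 ± 815 to 5131 ± 1197 CPM (SD, n = 3 each; log2 fold change 1.07, adjusted p = 0.020). This rise did not pass in 5 of 16 alternatives: upper-quartile factors, library totals only, an equal-variance test, and without MCAO replicate 2 or MCAO + rTMS replicate 1. miR-22-3p fell from 930 ± 176 to 462 ± 91.2 CPM (SD, n = 3 each; log2 fold change -1.01, adjusted p = 0.0086). miR-149-5p, at 681 ± 30.9 and 509 ± 214 CPM (SD, n = 3 each), did not pass (log2 fold change -0.42, adjusted p = 0.25).

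Of 7 miRNAs that act on p53 itself or on its regulators, all were tested, and 4 fell and 2 rose in edgeR's test. Of all tested miRNAs, 28.1% fell and 27.2% rose. Besides miR-125b-5p, those that fell were miR-29a-3p, miR-29b-3p and miR-29c-3p, which belong to a single family and are not independent. Those that rose, named after their values were seen, were miR-25-3p, from 402 ± 17.3 to 776 ± 50.3 CPM, and miR-504, from 182 ± 4.67 to 514 ± 274 CPM (SD, n = 3 each). miR-125b-5p, which represses p53, fell from 26700 ± 1140 to 17124 ± 3446 CPM (SD, n = 3 each; log2 fold change -0.64, adjusted p = 0.023 in edgeR's test). miR-29a-3p fell from 7674 ± 364 to 3740 ± 399 CPM (log2 fold change -1.04, adjusted p = 0.0021 in edgeR's test). miR-30d-5p, at 13030 ± 3235 and 12547 ± 812 CPM, did not pass (log2 fold change -0.05, adjusted p = 0.85 in edgeR's test).

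Markers of choroid plexus and other epithelium were counted beside the family, from a list also chosen with earlier results known. The list named miR-449c-5p of ciliated cells too, which had no row, so no ciliated-cell marker outside the family was measured. Of 13 on the list, 11 were in the table and 7 were tested. Of these, 1 fell and none rose in edgeR's test, beside 28.1% lower and 27.2% higher of all tested miRNAs. At an unadjusted p under 0.05, 2 were lower and none higher, and none was higher with DESeq2 or limma-voom. The number that fell ranged from 0 to 3 over the 16 alternatives. The 1 that fell was miR-200c-3p, a miRNA of epithelium that is also on the p53 list (log2 fold change -1.08, adjusted p = 0.028 in edgeR's test), and without MCAO replicate 3 none of the list was lower and 1 was higher. The summed level of the list was 450 to 654 CPM in MCAO rats and 623 to 1175 CPM in MCAO + rTMS rats. miR-204-5p, the leading miRNA of the choroid plexus and the pigment epithelium, was at 473 ± 73.4 CPM in MCAO rats and 726 ± 278 CPM in MCAO + rTMS rats (SD, n = 3 each; log2 fold change 0.62, adjusted p = 0.10 in edgeR's test). miR-211-5p, its relative with a shared seed, was at 31.2 ± 1.76 and 52.2 ± 30.4 CPM (log2 fold change 0.74, adjusted p = 0.13 in edgeR's test). miR-183-5p, a miRNA of sensory cells, was at 10.8 ± 11.8 and 7.51 ± 1.19 CPM, the MCAO value resting on replicate 3. miR-200a-3p, miR-429 and miR-96-5p, chosen after their values were seen because they were at 0 in all MCAO + rTMS libraries, were highest in MCAO replicate 3, where miR-200a-3p was at 11.5 CPM, miR-429 had 64 counts and miR-96-5p had 20. In MCAO replicate 2, where all 3 were listed as 0, miR-449a-5p had 19 counts. A listed 0 can hide a low count, so it does not show that these 3 were absent. The other epithelial miRNAs miR-200c-3p, miR-182, miR-183-5p and miR-200b-3p, given for comparison, had 95, 51, 47 and 15 counts there. The part of these cells in the decrease of miR-449a-5p and miR-34c-3p was not tested.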

How the data were processed

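The authors deposited read counts per mature miRNA, not normalized, for 6 libraries. The submitters' processing notes name bcl2fastq, BWA, DESeq2 and the rn6 build, and the counting rule is not given in the sources used here. A second table, a selection by the authors, was not used. Groups and replicate numbers came from the sample titles. Counts were fitted on the whole table in R 4.3.3 with edgeR 4.0.16 (filterByExpr, TMM factors, quasi-likelihood test without a block), and the fit was tested on simulated data. Standard errors were derived from the F statistic, as the absolute log2 fold change over its root. Ratios were compared with exact permutation tests in scipy 1.17.1. Alternatives included DESeq2 1.42.0, limma-voom (limma 3.58.1) and other scalings. P-values of the edgeR test set each difference against the spread between these rats, moderated over all tested miRNAs. The members were taken by name alone, and the lists were chosen with earlier results of these data known. Besides the 6 members, the text gives values for at most the 3 most abundant miRNAs of each list and the 3 most like miR-34a-5p and miR-34c-5p, and others only where it says why. Figures were drawn with matplotlib 3.10.9.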

Additional observations from a re-analysis of the deposited data

How the results depend on the processing

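Over 16 alternative fits, miR-34c-3p stayed lower in all and passed the threshold in 14, and miR-449a-5p stayed lower in all and passed in 15. In the filtered fits with zeros as listed, the filter kept miR-449a-5p only through the MCAO libraries. The fit with zeros set to 9 gave it no measured spread in MCAO + rTMS rats. Same-numbered rats of the groups showed no common deviation (r = 0.20, -0.12 and -0.11 for numbers 1, 2 and 3, and only number 1 correlated best with itself). The main fit therefore used no block. So few libraries cannot exclude a batch shared by replicate number. With the replicate block, 180 miRNAs passed instead of 250, 82 of them lower against 127, and 0 members did, with log2 fold changes of -1.41 for miR-34c-3p and -7.33 for miR-449a-5p, the latter a fitted value that depends on the prior count. miR-34a-5p passed with upper-quartile factors (-0.88) and library totals only (-1.17). With library totals only, 208 miRNAs were lower and 55 higher. Direction reversed for miR-34b-5p with upper-quartile factors (-0.068) and library totals only (-0.38), for miR-34b-3p under the same scalings (-0.23 and -0.55), and for miR-34c-5p with RLE factors (0.024), TMM without the 10 most abundant miRNAs (0.037), DESeq2 (0.024) and zeros set to 9 (0.061). Scaling reversals go with the shift of the median of all miRNAs. The cause of the others was not tested. With 1 library left out, the log2 fold change was -0.88 to -0.37 for miR-34a-5p, -0.13 to 0.084 for miR-34c-5p, 0.068 (without MCAO replicate 2) to 0.52 (without MCAO replicate 1) for miR-34b-5p, -0.0029 to 0.17 for miR-34b-3p and -1.47 to -1.31 for miR-34c-3p, from 1 to 3 members were lower (1 without MCAO + rTMS replicate 2), and from 84 to 131 of all miRNAs were. The family share differed by -0.0123 percentage points between the groups, and by -0.0325 of the total without the 10 most abundant miRNAs. The differences in the 5 ratios moved by less than the SD pooled over both groups, but those of miR-34b-5p to miR-34b-3p (0.020 without MCAO replicate 2 to 0.52 without MCAO replicate 1), miR-34c-5p to miR-34b-5p (-0.47 to -0.20, without MCAO replicates 1 and 2) and miR-34a-5p to miR-34c-5p (-0.76 to -0.35, without MCAO replicates 3 and 2) varied widely. Over the alternatives, 5 to 7 of the p53-induced list and 3 to 5 of the list acting on p53 were lower. In the list of choroid plexus and other epithelium, 0 to 3 were lower (3 without MCAO replicate 2). Depth limits miR-449a-5p most, since counts under 10 are not seen.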

Other observations

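Lists for other cells of the tissue, also chosen with earlier results known, were counted in the same edgeR test. Of all tested miRNAs, 28.1% were lower and 27.2% higher. Of 5 miRNAs of microglia and leukocytes, 4 fell and none rose. Those that fell were miR-155-5p, miR-223-3p, miR-142-5p and miR-142-3p, the last 2 being arms of the same hairpin and not independent. Over the 16 alternative fits, DESeq2 and limma-voom among them, 2 to 5 fell and none rose. The summed level of all 5 was 695 to 718 CPM in MCAO rats and 312 to 549 CPM in MCAO + rTMS rats. Most of this sum was miR-146a-5p, so it does not show the 4 that fell. The most abundant of them, miR-146a-5p, a brake on inflammatory signalling, was at 618 ± 23.3 and 414 ± 120 CPM (SD, n = 3 each; log2 fold change -0.58, adjusted p = 0.078) and did not pass. miR-155-5p, which promotes inflammatory signalling in myeloid cells, fell from 61.8 ± 16.2 to 27.5 ± 4.59 CPM (SD, n = 3 each; log2 fold change -1.17, adjusted p = 0.0064). Among 2 oligodendrocyte miRNAs, miR-219a-2-3p rose (log2 fold change 1.22, adjusted p = 0.013 in edgeR's test), which did not hold in 3 of 16 alternatives (library totals only, an equal-variance test, and without MCAO + rTMS replicate 2). The other, miR-338-3p, was at a log2 fold change of -0.73 (adjusted p = 0.060 in edgeR's test) and was called lower in 3 alternatives (upper-quartile factors, library totals only, and without MCAO replicate 3). Among 2 endothelial arms, miR-126a-5p fell (log2 fold change -1.22, adjusted p = 0.0041 in edgeR's test), and miR-126a-3p did not pass (log2 fold change -0.84, adjusted p = 0.054 in edgeR's test) but was called in 4 alternatives (upper-quartile factors, library totals only, DESeq2, and without MCAO replicate 3). Of 6 neuron miRNAs, miR-128-3p rose (log2 fold change 0.69, adjusted p = 0.036 in edgeR's test) and miR-138-5p, named after its values were seen, fell (log2 fold change -1.65, adjusted p = 0.00045 in edgeR's test), and miR-124-3p did not pass (log2 fold change -0.49, adjusted p = 0.086 in edgeR's test). None rose in 7 of 16 alternatives (upper-quartile factors, library totals only, an equal-variance test, the replicate block, and without MCAO replicate 1, 2 or 3), and 1 to 5 fell, the 5 with library totals only. Of 2 red cell miRNAs, miR-486 rose (log2 fold change 1.72, adjusted p = 0.0022 in edgeR's test) and miR-451-5p fell (log2 fold change -1.61, adjusted p = 0.038 in edgeR's test). The latter did not pass in 8 of 16 alternatives: limma-voom, an equal-variance test, the replicate block, and without any single library other than MCAO replicate 3. The part of these cells in the levels of the miR-34 and miR-449 miRNAs was not tested.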
